A study of Rattus norvegicus with 8 samples.

Results

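Glucocorticoid-responsive genes are transcribed when corticosterone, the main glucocorticoid of the rat, binds the glucocorticoid receptor and the receptor moves to the nucleus and binds DNA. In the hypothalamus the same hormone closes the negative feedback loop on corticotropin-releasing hormone neurons, and the transcripts of several target genes rise within an hour of a stressor. They are therefore often read as a record of recent glucocorticoid action in brain tissue. Here 10 such genes were followed in the hypothalamus of rats that had inhaled cannabis vapor, namely Fkbp5, Sgk1, Tsc22d3, Nfkbia, Zbtb16, Pdk4, Cdkn1a, Ddit4, Errfi1 and Klf9. They were found by their gene symbols. Of these, 9 had at least 1 3′ end site, and no site carried the symbol Pdk4, which was dropped. The 9 genes held 36 of 98356 sites, of which 64313 carried any of 18003 gene symbols.

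The animals were adult male Long-Evans rats with free access to food until the exposure. The cannabis group (n = 4 libraries) inhaled vaporized cannabis plant matter (CPM) for 10 min, and the control group (n = 4 libraries) spent the same time in an identical chamber with an empty vaporizer. Food was then removed and the hypothalamus was taken 1 hr later. Libraries were made by WTTS-Seq, which reads the 3′ ends of polyadenylated RNA and so counts each polyadenylation site of a gene apart. A library is named here by its group and the number in its label, which ran from 1 to 4 for air controls and was 1, 2, 3 or 5 for cannabis. Values are normalized counts, that is reads on a site divided by the size factor of the library. They are not scaled to transcript length. Levels are compared here between libraries and not between genes.

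The libraries held from 1159811 to 3706778 reads on sites, and 1 read was worth 0.664 to 1.99 normalized counts. Control 4 and cannabis 1 stood apart, with no read on 26.1% and 17.0% of sites against 3.32% to 10.3% in the other libraries, and their deviations from their group means went together (r = 0.49 across genes, which are not independent replicates). Markers of neurons, astrocytes, oligodendrocytes and microglia overlapped between groups. The summed 3 ventral midbrain markers were at 256 to 368 in controls and 22.6 to 68.4 in cannabis, and Slc6a3 and En1 of that list passed P of 0.05. The summed 10 hypothalamic markers were at 3274 to 5619 in controls and 7436 to 9479 in cannabis. Avp alone made up much of this sum, at 1054 to 3082 in controls and 3278 to 6314 in cannabis. Avp and Oxt passed P of 0.05, and no other gene of that list did. The 5 of 6 endothelial markers in the files summed to 102 to 113 in controls and 120 to 134 in cannabis, with no gene past P of 0.05. The sums for choroid plexus (4 of 5 markers, 13.7 to 45.2) and pituitary (3 of 5 markers, 122 to 821, with no row for Gh1 or Prl) overlapped between groups, and no listed marker with a row was at 0 in every library. What part these differences in marker RNA had in the values below was not tested. In such bulk tissue, fewer cells of a type and less RNA per cell cannot be told apart.

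The receptor binds an inverted repeat, AGAACA and TGTTCT with 3 bases of any kind between them, and promoter windows of the genes are shown to make clear what sequence lies at their starts. The windows run from 250 bases before to 50 bases after a RefSeq transcript start in the rat assembly GRCr8, which is not the build of the 3′ end data. The 3′ end reads do not measure these windows. Searched on both strands, the repeat was in 0.0149% of 33469 windows, and a looser form, AGNACA and TGTNCT at the same spacing, was in 0.0568%. Neither was in any of the 13 windows matched to 9 of the 10 genes, Pdk4 included and Zbtb16 without a match, and nor was the hexamer AGAACA, which was in 20.7% of all windows. This says only that those letters are absent from these windows. The 2 windows below are those of Nfkbia, the gene with the lowest P here, and Fkbp5, the most used marker of receptor action. Capitals mark GGGA and TTCC with 2 bases between them, a form of the element bound by NF-kappa B (1.30% of windows, and of the genes here only Nfkbia), and TATAAA (14.2% of windows), each on either strand, and these matches did not overlap. TATAAA was in 5 of the 13 windows, those of Errfi1, Nfkbia, Sgk1 and Tsc22d3. In Nfkbia it is on the opposite strand and lies after the transcript start.
Nfkbia, chr6:78597023-78597322, minus strand: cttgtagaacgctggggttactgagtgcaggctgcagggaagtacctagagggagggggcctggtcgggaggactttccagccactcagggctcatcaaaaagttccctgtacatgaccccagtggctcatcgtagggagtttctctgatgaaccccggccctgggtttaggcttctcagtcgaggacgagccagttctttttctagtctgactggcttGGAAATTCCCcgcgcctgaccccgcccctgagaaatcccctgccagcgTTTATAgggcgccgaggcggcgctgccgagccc
Fkbp5, chr20:6543506-6543805, minus strand: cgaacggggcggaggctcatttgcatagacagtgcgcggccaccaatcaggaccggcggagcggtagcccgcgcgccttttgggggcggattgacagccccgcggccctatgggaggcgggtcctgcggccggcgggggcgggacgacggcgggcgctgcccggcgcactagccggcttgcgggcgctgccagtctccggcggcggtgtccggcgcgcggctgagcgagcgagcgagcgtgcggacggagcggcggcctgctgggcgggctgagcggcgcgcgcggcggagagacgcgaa

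For none of the 9 genes did a difference between cannabis and control rats pass the test by gene total, the sum of normalized counts over all sites of a gene. Totals were compared with limma on log2(normalized count + 1) over all 18003 symbols, and the Benjamini-Hochberg adjusted P was 0.999 for each of the 9. At unadjusted P of 0.05 limma, edgeR and DESeq2 each called 0 of 9, while limma called 2.41% of all symbols. The ranges of the groups overlapped for all 9, and they were apart for 1.98% of all symbols. By adjusted P of 0.1, 0.00555% of symbols passed. The median log2 fold change was 0.16 over the 9 genes, 5 higher and 4 lower, against 0.05 over all symbols. Over the 8 with a mean of at least 10 normalized counts it was 0.06, the same as the 0.06 over the 12114 symbols at that level. The values of each gene follow, ordered by what its product does.

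**Figure D1:**
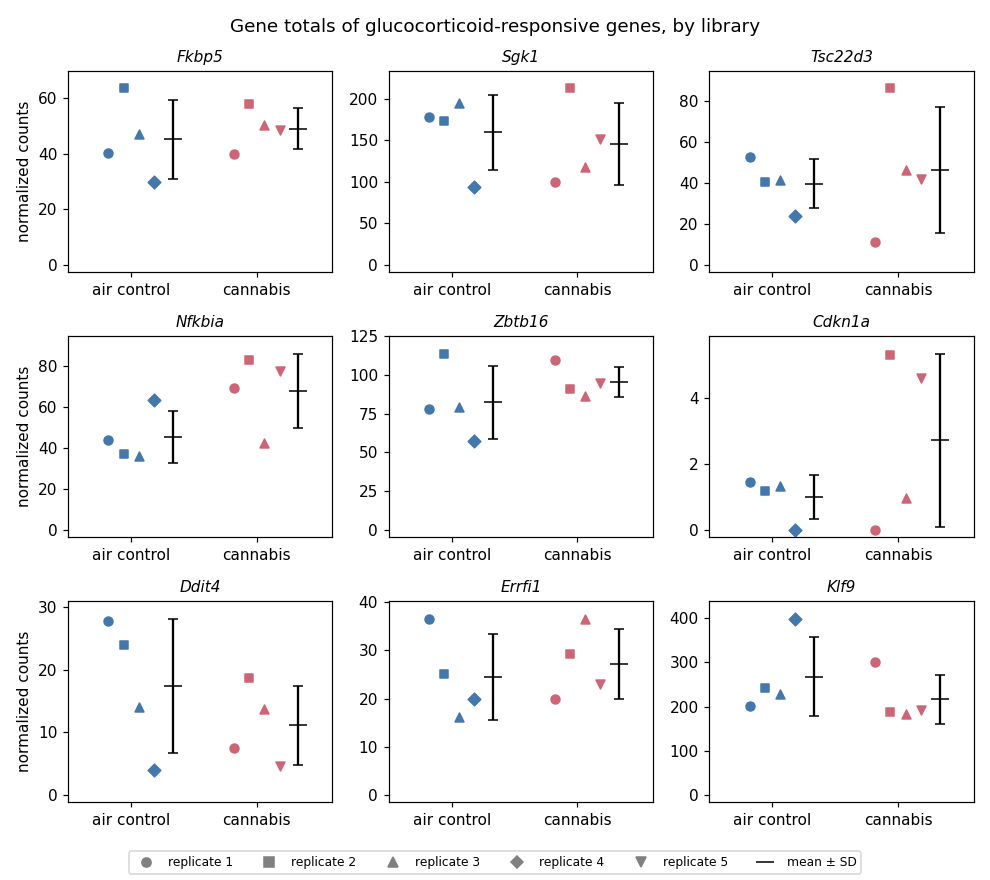
Gene totals in normalized counts (vertical axes, a scale per gene) of the 9 glucocorticoid-responsive genes in 4 air control (blue) and 4 cannabis (red) libraries, with the symbol giving the replicate number and the bar the mean ± SD. The groups overlap in every panel, and control 4 is the lowest control for Fkbp5, Sgk1, Tsc22d3, Zbtb16, Cdkn1a and Ddit4 and the highest for Nfkbia and Klf9.

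Fkbp5 encodes an HSP90 co-chaperone that lowers the hormone affinity of the receptor and so forms a short feedback loop. Its total was 40.2, 63.4, 47.0 and 29.8 in controls 1 to 4, and 39.7, 57.8, 50.2 and 48.4 in cannabis 1, 2, 3 and 5. All 4 cannabis libraries lay within the control range. The means were 45.1 ± 14.1 and 49.0 ± 7.41 (SD, n = 4), and the log2 fold change was 0.16 with a 95% interval from -0.45 to 0.77 (limma P = 0.591, exact permutation P = 0.657). An increase above 1.70-fold lay outside that interval. Without control 4 the value became -0.02. The gene had 7 sites and 426 reads, and the site with most reads took 37.8% of them.

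Nfkbia encodes the inhibitor that holds NF-kappa B in the cytoplasm, a route by which glucocorticoids damp inflammatory transcription. It had the largest log2 difference among the 8 genes with a mean of at least 10. Its total was 43.9, 37.1, 36.3 and 63.6 in controls and 69.5, 83.0, 42.3 and 77.6 in cannabis. Cannabis 1, 2 and 5 lay above every control, whereas cannabis 3 lay among the controls. The means were 45.2 ± 12.7 and 68.1 ± 18.1 (SD, n = 4), a log2 fold change of 0.57 (SE 0.29, 95% interval -0.05 to 1.20, limma P = 0.0703, adjusted P = 0.999, exact permutation P = 0.0857). By these tests it was within the replicate spread. Unadjusted limma P fell to 0.0180 without cannabis 3 (log2 fold change 0.78), to 0.0232 without control 4 (0.75) and to 0.0338 without control 4 and cannabis 1 (0.72). Leaving out any other single library raised it, to between 0.110 and 0.169, the highest without cannabis 2 (0.46), and no adjusted P passed 0.1. Both of its sites pointed the same way, with log2 fold changes of 0.55 for the site with 69.3% of reads and 0.50 for the other. The lead site was at 26.3, 27.5, 26.9 and 39.7 in controls and 37.3, 69.8, 28.5 and 49.9 in cannabis (limma P = 0.185, exact permutation P = 0.171), so that only cannabis 2 and cannabis 5 lay above all controls.

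Tsc22d3 encodes the glucocorticoid-induced leucine zipper, a further anti-inflammatory target. Its total was 52.6, 40.7, 41.6 and 23.8 in controls and 11.2, 86.4, 46.2 and 42.2 in cannabis. The lowest and the highest of the 8 values were both cannabis libraries, cannabis 1 and cannabis 2. The SD was 30.8 around a cannabis mean of 46.5 and 11.9 around a control mean of 39.7 (n = 4). The log2 fold change was -0.03, with an interval from -1.09 to 1.03 (limma P = 0.951, exact permutation P = 0.714), so a change of up to 2.04-fold upward lay inside it. The permutation test compares the mean counts, which were higher in cannabis, so these measures differ in sign. The direction of the log2 fold change depended on single libraries, with 0.52 without cannabis 1, 0.12 without control 1 and 0.01 without control 3. The counts behind cannabis 1 and control 4 were 9 and 12 reads, against 130 in cannabis 2.

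Among the signalling proteins, Sgk1 encodes a kinase that acts on ion channels and transporters. Its total was 178, 174, 195 and 93.3 in controls and 99.3, 213, 118 and 152 in cannabis. Control 4 and cannabis 1 were the lowest of their groups. The means were 160 ± 45.3 and 146 ± 49.7 (SD, n = 4), and the log2 fold change was -0.14 (95% interval -0.77 to 0.49, limma P = 0.640, exact permutation P = 0.686). Without cannabis 1 it was 0.02. Nearly all of its reads, 94.7%, were on 1 of its 3 sites.

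Errfi1 encodes an inhibitor of the EGF receptor. Its total was 36.6, 25.1, 16.1 and 19.9 in controls and 19.9, 29.2, 36.4 and 23.0 in cannabis. The 2 groups covered nearly the same range, with means of 24.4 ± 8.90 and 27.1 ± 7.30 (SD, n = 4) and a log2 fold change of 0.17 (95% interval -0.56 to 0.90, limma P = 0.617, exact permutation P = 0.686). It was 0.38 without control 1 and 0.0046 without control 3.

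Ddit4 encodes a stress-induced inhibitor of the growth kinase complex mTORC1. It had a single site, at 27.8, 23.9, 14.1 and 3.97 in controls and 7.45, 18.6, 13.8 and 4.61 in cannabis. Controls 1 and 2 lay above every cannabis library, but control 4 was the lowest of all, on 2 reads. The means were 17.4 ± 10.7 and 11.1 ± 6.29 (SD, n = 4), and the log2 fold change was -0.49 (95% interval -1.73 to 0.74, limma P = 0.406, exact permutation P = 0.371). Without control 4 it was -1.03 (limma P fell to 0.0472, adjusted P = 1.00), without cannabis 5 it was -0.18, and without control 1 or control 2 it was -0.19 or -0.26, so this value rested on single libraries.

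Cdkn1a encodes an inhibitor of cyclin-dependent kinases. It was near the limit of detection, with 20 reads on 1 site over the 8 libraries. The reads were 2, 1, 2 and 0 in controls and 0, 8, 1 and 6 in cannabis. Only cannabis 2 and cannabis 5 held more than 3 reads, the smallest number taken as detectable. A difference could not be shown at this depth (limma P = 0.393, exact permutation P = 0.400), and the fitted fold change, which depends on the pseudocount at such counts, is not read as a size.

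The remaining genes encode transcription factors. Zbtb16, a zinc finger repressor, was at 78.2, 114, 79.2 and 57.6 in controls and 109, 91.0, 86.6 and 94.5 in cannabis. Every cannabis library lay above controls 1, 3 and 4 and below control 2. The means were 82.2 ± 23.3 and 95.3 ± 9.84 (SD, n = 4), and the log2 fold change was 0.25 (95% interval -0.28 to 0.78, limma P = 0.332, exact permutation P = 0.314). It was 0.42 without control 2, 0.09 without control 4 and 0.03 without control 4 and cannabis 1.

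Klf9 encodes a Kruppel-like factor that responds to glucocorticoid and thyroid hormone in neurons. Its total was 201, 242, 229 and 399 in controls and 300.5, 188, 184 and 193 in cannabis. Cannabis 2, 3 and 5 lay below every control, whereas cannabis 1 was the second highest of the 8. The means were 268 ± 89.3 and 216 ± 56.2 (SD, n = 4), and the log2 fold change was -0.29 (95% interval -0.83 to 0.26, limma P = 0.280, exact permutation P = 0.457). It was -0.08 without control 4 and -0.45 without cannabis 1. The highest values of both groups were in control 4 and cannabis 1, the libraries with the fewest reads.

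**Figure D2:**
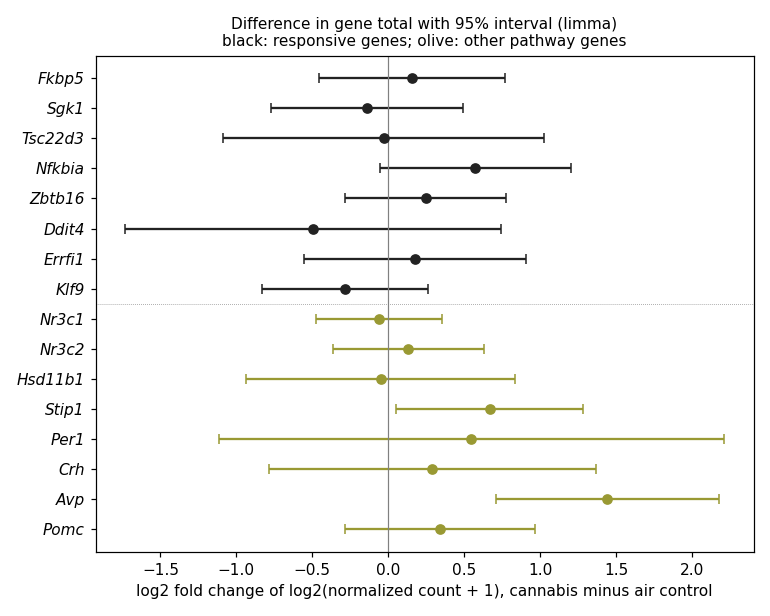
Log2 fold change of the gene total, cannabis minus air control (horizontal axis, on the log2(normalized count + 1) scale), with the 95% interval from limma, for 8 glucocorticoid-responsive genes (black, Cdkn1a with 20 reads left out) and 8 further genes of the pathway (olive). All 8 black intervals cross 0, and those of Stip1 and Avp lie above 0.

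Among libraries most of the genes were below their mean in control 4, whereas Nfkbia (0.23 on the log2 scale) and Klf9 (0.77) were above it. Control 4 was the lowest of the 8 libraries for Fkbp5, Sgk1, Zbtb16 and Ddit4, shared the lowest value of Cdkn1a with cannabis 1, and was the highest for Klf9. The median deviation of the 9 genes from their means over all libraries was -0.61 on the log2 scale in control 4 and -0.31 in cannabis 1. Cannabis 2, the most deeply sequenced library, was at 0.53, was above the gene's median in 8 of 9 genes and was the highest for Sgk1, Tsc22d3, Nfkbia and Cdkn1a. Cannabis 2 also had the lowest share of reads on mitochondrial genes, 2.57% against 3.30% to 5.28% elsewhere. What part depth or library quality had in this was not tested. The 9 genes together took from 0.0257% to 0.0313% of the reads of a library.

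**Figure D3:**
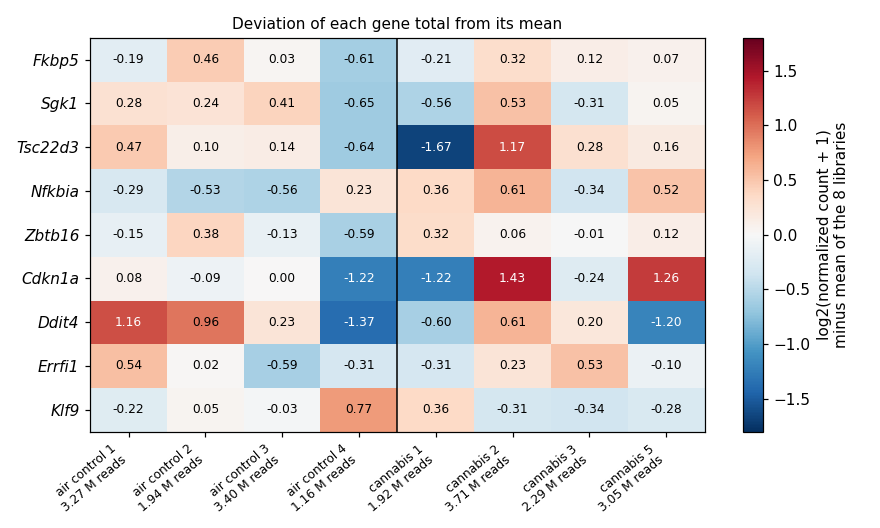
Deviation of each gene total from its mean over the 8 libraries, in log2(normalized count + 1), for the 9 genes (vertical axis) and the libraries with their reads on sites (M on the horizontal axis), blue below and red above the mean. Most genes are below their mean in control 4 and above it in cannabis 2, and Klf9 shows the opposite.

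Correlations between the genes across libraries had either sign. Over the 28 pairs of genes without Cdkn1a, Pearson's r of the log2 totals over the 8 libraries ranged from -0.74 to 0.80 with a median of 0.10. With Cdkn1a, which is near the limit of detection and gave both extremes, the 36 pairs ranged from -0.79 to 0.81 with a median of 0.25. Fkbp5, Sgk1, Tsc22d3 and Ddit4 were positive with each other (r from 0.56 to 0.80). Klf9 was negative with every other gene (-0.39 to -0.79) but Nfkbia (0.11). This grouping was seen after the values were known. These points share library and depth, so they are given as a description. Within groups the SD of the log2 total was lowest for Zbtb16 (0.30) and Fkbp5 (0.35), and highest for Tsc22d3 (0.91), Ddit4 (0.99) and Cdkn1a (1.00). This SD also depends on level. Among the 501 symbols nearest in level, the median SD was 0.39 for Zbtb16 and 0.44 for Fkbp5. It was 0.44 for Tsc22d3, 0.61 for Ddit4 and 0.92 for Cdkn1a, and 93.4%, 84.2% and 68.1% of those symbols had a lower SD. Among 6104 symbols with a mean of at least 50, the totals most like Fkbp5 over the 8 libraries were those of St6gal1 (r = 0.99), Fam114a2 (r = 0.97), Tmpo (r = 0.95), Wrnip1 (r = 0.95) and Ctnnb1 (r = 0.95). They are the highest of 6104 correlations over 8 points, so the search alone gives high values, and they are not read as shared regulation. Each of them, like Fkbp5, was lowest in control 4.

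By single site, the 36 sites were also compared in limma over all 98356 sites. Adjusted P of 0.1 was passed by 0 of the 36 and by 0.00102% of all sites. The log2 fold change was positive at 19 and negative at 17. At unadjusted P of 0.05 there were 2 sites, both of Klf9, against 3.03% of all sites, and at P of 0.01 there was 1, against 0.381%. The groups were apart at 1 of 36, against 2.0% of all sites. These shares rest on so few sites that they do not set the genes apart. Of the 36 sites, 16 had fewer than 50 reads in all.

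The site past P of 0.01 was the sixth Klf9 site by reads and held 1.92% of them. It had 13, 3, 10 and 4 reads in controls and 0, 3, 1 and 4 in cannabis. As normalized counts these were 9.50, 3.59, 6.71 and 7.94 against 0, 1.99, 0.984 and 3.07, so each control lay above each cannabis library. The log2 fold change was -1.78 (95% interval -3.01 to -0.55, limma P = 0.00675, adjusted P = 1.00, exact permutation P = 0.0286, the smallest that 4 against 4 allows). P from limma rose to 0.0249 without cannabis 1 and to 0.0306 without control 1, and it was 0.0157 by edgeR and 0.0180 by DESeq2 on recovered reads. With 38 reads in all, the size of this difference is poorly known. The third Klf9 site, named after its values were seen, was at 48.2, 52.7, 54.4 and 91.4 in controls and 49.7, 43.8, 22.6 and 22.3 in cannabis (log2 fold change -0.86, 95% interval -1.70 to -0.02, limma P = 0.0455, exact permutation P = 0.0571), and cannabis 1 overlapped the controls.

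The lead site of Klf9, with 29.4% of its reads, had nearly the same number of reads in every library. It had 73, 69, 87 and 75 reads in controls and 74, 61, 63 and 81 in cannabis, a ratio of 1.43 between the highest and the lowest, while reads on all sites differed 3.20-fold between libraries. Divided by size factors, these reads gave 53.4, 82.6, 58.4 and 149 in controls and 91.9, 40.5, 62.0 and 62.2 in cannabis. Control 4 and cannabis 1, with fewest reads in all, were thus the highest of their groups on the normalized scale. The second site had 44 to 99 reads and was likewise highest in control 4 and cannabis 1 (123 in each as normalized counts). The fourth site had 6 reads in control 4 and 83 in cannabis 2, and was lowest in control 4. The sites of this gene were therefore unlike each other in how their reads followed depth, which was seen after the values were known and whose cause was not tested. At none of these 3 sites did the groups differ beyond their spread (log2 fold changes of -0.35, -0.08 and 0.24, exact permutation P = 0.543, 0.971 and 0.743).

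**Figure D4:**
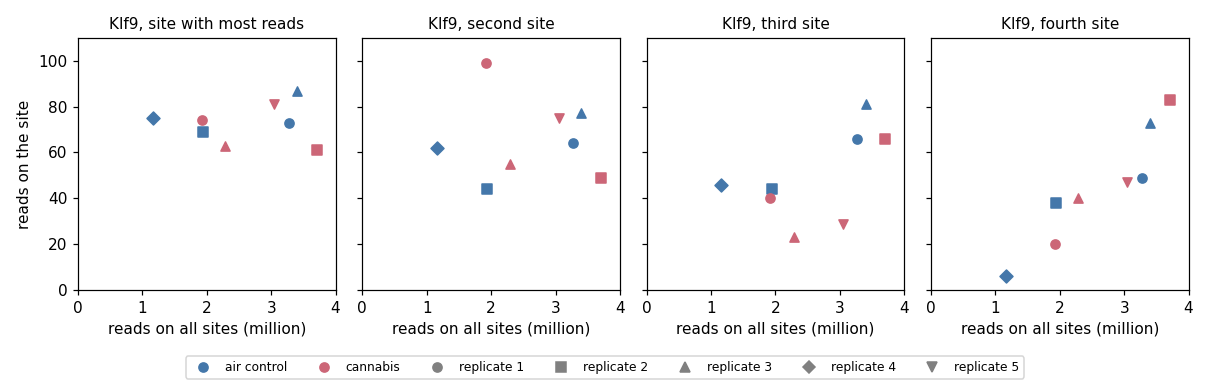
Reads on the 4 Klf9 sites with most reads (vertical axis) against reads on all sites of the library (horizontal axis), air control in blue and cannabis in red, with the symbol giving the replicate number. The first site stays between 61 and 87 reads, while the fourth goes from 6 to 83.

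Whether a gene used another 3′ end after cannabis was asked by the share of its reads on the site with most reads, for the 7 genes with more than 1 site and a mean of at least 10. Exact permutation P was under 0.05 for 0 of 7, and for 1.86% of 9529 symbols compared in the same way. The adjusted P over those symbols was 1 for all 7. It could not have been low for any symbol, because the smallest P that 4 against 4 allows is 0.0286 and few symbols reached it. The adjusted P is therefore not read as a result on these genes. Differences in percentage points, cannabis minus control, were 12.1 for Tsc22d3 (exact permutation P = 0.286), 5.84 for Zbtb16 (0.571), 5.69 for Fkbp5 (0.457), 3.33 for Errfi1 (0.914), -0.349 for Nfkbia (1), -0.385 for Sgk1 (0.914) and -1.36 for Klf9 (0.771). For Tsc22d3 the share was 79.2%, 82.4%, 80.6% and 41.7% in controls and 88.9%, 74.6%, 85.1% and 83.6% in cannabis, so the difference came with a control 4 value of 5 in 12 reads. Without control 4 it was 2.34 points. Single libraries also moved the Fkbp5 difference, to 0.918 points without cannabis 3 and 9.78 without control 2, and the Zbtb16 difference, to 0.496 without cannabis 1 and 12.5 without cannabis 2. For Fkbp5 the share was 29.1%, 47.2%, 30.0% and 33.3% in controls and 37.5%, 41.4%, 54.9% and 28.6% in cannabis, and the groups overlapped.

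At the other lead sites limma gave log2 fold changes of 0.34 for Fkbp5 (exact permutation P = 0.571), -0.15 for Sgk1 (0.686), 0.23 for Tsc22d3 (0.600), 0.43 for Zbtb16 (0.543) and 0.21 for Errfi1 (0.8). The lead sites of Zbtb16 and Errfi1 held 36.7% and 62.5% of their genes' reads, and that of Tsc22d3 78.6%. Without control 2 the Fkbp5 and Zbtb16 lead sites were at 0.66 and 0.81, and without control 4 at 0.16 and 0.08. No lead site passed P of 0.05 in any of the alternatives computed.

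The wider pathway was read from 42 textbook genes in 3 groups, of which 35 were in the files. They were chosen with earlier results of these data known, Avp among those results, so the counts below are a description. In the gene total comparison 2 of the 35 rose at unadjusted P of 0.05 and 0 fell, against 1.31% and 1.09% of all symbols, and 0 passed adjusted P of 0.1. Of the 35, 20 were higher and 15 lower, with a median log2 fold change of 0.11. Over all symbols 10153 were higher and 7850 lower, with a median of 0.05, so most symbols were higher by this fit. Among receptors and proteins that handle the hormone or the receptor (10 of 12 in the files), 4 were higher and 6 lower. Nr3c1, the glucocorticoid receptor, was at 230, 184, 201 and 234 in controls and 199, 234, 188 and 194 in cannabis, a log2 fold change of -0.06 with the narrowest interval of the named genes, -0.47 to 0.35 (limma P = 0.761, exact permutation P = 0.686). Nr3c2, the mineralocorticoid receptor, was at 86.3, 85.0, 83.9 and 55.6 in controls and 77.0, 82.4, 92.5 and 84.5 in cannabis (log2 fold change 0.13, limma P = 0.578, exact permutation P = 0.657). Hsd11b1, which regenerates active hormone, was at 9.93 to 36.3 in controls and 17.4 to 32.5 in cannabis (-0.05, limma P = 0.904, exact permutation P = 0.714). Neither receptor nor the enzyme differed beyond the spread between libraries.

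Stip1, a co-chaperone in the assembly of the receptor with HSP90, was the receptor-handling gene that rose at unadjusted P of 0.05. It was at 127, 104, 177 and 75.5 in controls and 161, 191, 139 and 266 in cannabis (log2 fold change 0.67, 95% interval 0.05 to 1.28, limma P = 0.0353, adjusted P = 0.999, exact permutation P = 0.114). The groups overlapped, and P was 0.0522 by edgeR, 0.0513 by DESeq2 and 0.0757 without the trend. It was also above 0.05 without cannabis 2 (0.0634), cannabis 5 (0.121), control 2 (0.0803) or control 4 (0.110). Of the further target genes 20 of 24 were in the files, and 0 passed P of 0.05 in limma. Of these, 13 were higher and 7 lower with a median of 0.20, against 0.05 over all symbols. Per1, a clock gene that glucocorticoids induce, had 68 reads in all and 0 in control 4, and its log2 fold change of 0.55 had an interval from -1.11 to 2.21 (limma P = 0.490, exact permutation P = 0.457).

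In the hormone axis 5 of 6 genes were in the files, and Avp rose at unadjusted P of 0.05. Avp encodes vasopressin, which acts with corticotropin-releasing hormone on the pituitary and is also made by magnocellular neurons. It was at 3082, 1178, 1054 and 2494 in controls and 5799, 3278, 4343 and 6314 in cannabis (log2 fold change 1.44, 95% interval 0.71 to 2.18, limma P = 0.000924, adjusted P = 0.999, exact permutation P = 0.0286). The groups were apart. The paper had already reported more reads at a distal Avp site after cannabis from these libraries. Its quantitative PCR in a separate cohort gave higher Avp, but only Slc6a3 was reported to reach significance there. Avp is itself part of the hypothalamic marker sum that was higher in cannabis, so that sum is not a measure separate from Avp. Crh, the releasing hormone, had 41 reads in all and a log2 fold change of 0.29 (95% interval -0.79 to 1.37, limma P = 0.572, exact permutation P = 0.571). Pomc, the precursor of corticotropin and melanocortins, was at 49.0, 83.8, 48.3 and 101 in controls and 93.1, 77.1, 67.9 and 107.5 in cannabis (0.34, 95% interval -0.28 to 0.96, limma P = 0.261, exact permutation P = 0.371). The Pomc value was 0.19 without control 1 or control 3 and 0.54 without control 4. Neither Crh nor Pomc differed beyond the spread between libraries.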

How the data were processed

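WTTS-Seq libraries of the hypothalamus, 4 from the cannabis group and 4 from the control group, were grouped by their labels. The authors removed low-quality reads (FASTX Toolkit) and the Ts at read starts, and used TMAP 3.4.1 to map to Rnor_6.0 (Annotation Release 106). Read ends within 24 nt formed a site, sites under 16 reads were dropped, and Cuffcompare 2.2.1 gave the gene. The deposited signal is a normalized count per site, reads divided by a DESeq2 size factor, in 1 file per library, joined here by row order. Files give no positions for the sites, so exon, intron or UTR is not given here. Dividing by the smallest step recovered whole reads, to within 0.01 of a read, for 100% of values in every library.

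The genes, pathway list and markers were chosen with earlier results of these data known. Named genes were the 10 genes, their lead sites and other sites with P under 0.01, 7 fixed pathway genes and others with P under 0.05, and the 5 symbols most like Fkbp5. Gene totals and sites were tested with limma 3.58.1 (lmFit, eBayes with trend, R 4.3.3) on log2(normalized count + 1), which understates changes of low genes, with Benjamini-Hochberg adjustment over all symbols or sites. P of 0.01 and adjusted P of 0.1 follow the study. Intervals are 95%. Permutation tests were exact and two-sided, of means of 4 against 4. Alternatives were another pseudocount (0.5 or 5), a minimum mean of 10, equal totals, TMM, no trend, edgeR 4.0.16 and DESeq2 1.42.0 on recovered reads, the replicate number as a block, and leaving out libraries. The paper describes libraries made per sample, so P is taken to measure the spread between rats and library preparation together. Tables and permutations were computed in Python 3.11.15 (scipy 1.17.1, pandas 2.3.3, numpy 2.4.6) and figures drawn with matplotlib 3.10.9.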

Additional observations from a re-analysis of the deposited data

Results flagged for a closer look

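Values far from the other 3 libraries of their group were looked for in 68 groups of 4, and 5 were found, where chance gives about 1 in 20. The Klf9 total of cannabis 1 (300.5 normalized counts) was far above the other cannabis libraries. Control 4 was far from the other controls in 3 places. It was high at the lead site of Nfkbia (39.7), low for Nr3c2 (55.6), and low for the share of Tsc22d3 reads on its lead site (41.7%). Control 3 was low for the share of Errfi1 reads on its lead site (41.7%, 10 of 24 reads). Of the 5 values, 4 were in control 4 or cannabis 1, the libraries with most sites without a read.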

How the results depend on the processing

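Over 161 alternatives for the 9 gene totals, 4 gave unadjusted P under 0.05 in limma (3 for Nfkbia and 1 for Ddit4, all by leaving out libraries) and 11 turned direction, all of Fkbp5, Sgk1, Tsc22d3 or Cdkn1a, and adjusted P never went below 0.914. Tsc22d3 turned to 0.14 with DESeq2, 0.15 with edgeR, 0.0038 with a pseudocount of 5 and 0.30 without control 4 and cannabis 1, an alternative chosen after seeing the data. Leaving out single libraries moved Fkbp5 from -0.021 to 0.33, Sgk1 from -0.38 to 0.022, Tsc22d3 from -0.43 to 0.52, Crh from -0.066 to 0.46, Hsd11b1 from -0.43 to 0.16, Nr3c2 from -0.02 to 0.19, Per1 from -0.23 to 1.12 and Pomc from 0.19 to 0.54, and lead sites of Errfi1 from -0.13 to 0.47, Sgk1 from -0.42 to 0.023 and Tsc22d3 from -0.21 to 0.75. Shares moved from -3.87 to 12.6 points for Errfi1, -3.15 to 1.30 for Klf9, -5.90 to 4.24 for Nfkbia, -2.38 to 1.65 for Sgk1, 0.918 to 9.78 for Fkbp5 and 0.496 to 12.5 for Zbtb16. Without control 4 and cannabis 1 the shares of Errfi1, Klf9, Nfkbia and Zbtb16 became -1.40, 0.433, 2.51 and -3.87 and the Zbtb16 lead site -0.18. On the 2 sites with most reads the shares of Klf9 and Sgk1 became 3.4 and 0.785, and as a log ratio Nfkbia and Sgk1 became 0.053 and 0.075. The cause was not tested.

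The replicate numbers gave no sign of pairing (correlation of deviations -0.23, 0.09 and -0.07 for numbers 1, 2 and 3), and a replicate block leaves control 4 and cannabis 5 without weight. With the replicate block Cdkn1a (total and site) became -0.0056, Fkbp5 -0.019, Nr3c1 0.010, Nr3c2 -0.023, Per1 -0.31 and the Tsc22d3 lead site -0.27, Stip1 fell to 0.29 (limma P from 0.0353 to 0.373), and 0 of the 9 totals passed P of 0.05.

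Of the 9 totals, 0 passed P of 0.05, 1 without control 4 and cannabis 1, and 0 to 2 without single libraries. Of the pathway genes 2 passed, and 1 with DESeq2, edgeR, no trend, the block or without both libraries (1 to 3 without single libraries). Of all symbols 1 passed adjusted P of 0.1, against 7 with DESeq2, 2 with TMM, edgeR, equal totals or the block, and 0 with no trend or without both (0 to 2 without single libraries). At P of 0.01, 18 symbols were higher, 51 with no trend and 7 with the block (7 to 49), and 32 lower, 64 with DESeq2 and 17 with a mean of at least 10 or the block (15 to 66). Of all sites 1 passed adjusted P of 0.1, 4 with DESeq2, 7 with the block, and 0 with no trend, a mean of at least 10 or without both (0 to 5). At P of 0.01, 375 sites passed, 44 with a mean of at least 10 and 229 with the block (227 to 617). Of the 36 sites 1 passed P of 0.01, and 0 with DESeq2, edgeR, a mean of at least 10 or without both (0 to 1). Depth limited Cdkn1a and Ddit4 most, with 0 to 8 and 2 to 38 reads per library.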
